A study of Mus musculus with 17 samples.

Results

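The Iroquois homeobox genes *Irx1*, *Irx2*, *Irx3*, *Irx4*, *Irx5*, and *Irx6* were followed in astrocytes purified from the cortex and from 3 thalamic nuclei. They are 6 of the 26556 genes with counts, and all 6 were found by symbol. The members were selected on measured values of these same libraries, since *Irx2* and *Irx5* stood out in the difference between thalamus and cortex. Values of thalamus against cortex are therefore a description with no test, whereas differences between the nuclei, on which the choice is not known to rest, were tested.

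Iroquois genes encode homeodomain transcription factors of the TALE class, whose homeodomain holds an extra loop between its first helices. They lie in the mouse genome in 2 clusters of 3 genes, IrxA and IrxB. In the embryo they pattern the neural tube, and in the forebrain they are known for their expression in the caudal diencephalon, where the thalamus forms, and for their absence from the telencephalon, where the cortex forms.

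The question was how far astrocytes keep the regional signature of the tissue in which they lie. All 17 libraries came from untreated *Gfap::Gfp* mice of the FVB strain at postnatal day 7 (P7), and each pooled 4 brains. The cortex (primary somatosensory area) gave 4 libraries. The dorsolateral geniculate nucleus (dLG) gave 5, the ventral posteromedial nucleus (VPM) 4, and the ventral medial geniculate nucleus (MGv) 4. In these mice the *Gfap* promoter drives green fluorescent protein, so the sort (FACS) kept cells with an active reporter, and each library is named here by its group and replicate letter.

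CPM are counts relative to library size, scaled with the TMM factors of edgeR unless said otherwise. Total counts ran from 18213687 to 50366363 per library, and the floor of 3 counts corresponded to 0.0596 to 0.165 CPM without these factors. Such floors cover counting error only. The dLG c library detected the fewest genes (17749, against at most 23365) and was the only library of its number series in the labels. All 10 astrocyte markers had counts in every group. Their summed level ran from 12969 to 13964 CPM in cortical and from 6383 to 15683 CPM in thalamic libraries. Only MGv c lay above the cortical libraries. All other thalamic libraries lay below them, at up to 9451 CPM in dLG c. Of the 10, *Slc1a3*, *Slc1a2*, and *Aldoc* were called higher in the cortex and *S100b* higher in the thalamus, at an adjusted p under 0.1 in edgeR. Of all genes tested, 5.93% and 5.45% were called in these directions. *Gfap* itself ranged from 450 to 537 CPM in the cortex, from 78.2 to 1308 CPM in the dLG, from 8.98 to 19.2 CPM in the VPM, and from 36.1 to 5519 CPM in the MGv. The 11 neuronal markers summed to 729 to 1961 CPM and the 9 oligodendrocyte lineage markers to 6150 to 11288 CPM in the thalamus. Which cells these transcripts came from was not tested. In such bulk samples, fewer cells that express a gene and less RNA per cell cannot be told apart.

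The homeobox itself shows how close the members are. The 99 bases below run from the loop of the homeodomain to its recognition helix in the first annotated transcript of each gene (GENCODE M21, GRCm38), written 5′ to 3′ and shown because short reads must tell the members apart. Capitals mark bases that differ from *Irx2*.
Irx2: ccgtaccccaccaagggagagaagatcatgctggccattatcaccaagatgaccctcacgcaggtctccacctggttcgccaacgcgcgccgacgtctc
Irx1: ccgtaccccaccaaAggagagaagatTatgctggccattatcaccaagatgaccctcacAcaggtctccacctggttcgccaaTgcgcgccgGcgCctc
Irx4: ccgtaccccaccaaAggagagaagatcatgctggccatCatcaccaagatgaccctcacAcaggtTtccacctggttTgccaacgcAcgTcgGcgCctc
Irx5: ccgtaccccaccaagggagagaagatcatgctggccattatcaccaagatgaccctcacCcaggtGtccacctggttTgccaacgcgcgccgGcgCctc
Irx3: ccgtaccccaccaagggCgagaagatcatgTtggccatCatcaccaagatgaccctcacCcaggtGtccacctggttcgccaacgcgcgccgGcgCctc
Irx6: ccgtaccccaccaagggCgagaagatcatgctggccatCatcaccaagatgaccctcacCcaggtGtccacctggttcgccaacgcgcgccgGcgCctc

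All 6 stretches encode the same 33 residues, and the pairs differ by 1 to 9 bases. *Irx3* and *Irx6* differed by 1 base and shared an identical run of 68 bases, longer than the 50-base reads. Over whole transcripts, however, they shared 39 stretches of 50 bases, of 2762 in *Irx3* and 3368 in *Irx6*. *Irx2* and *Irx5* shared 16 such stretches, *Irx3* and *Irx5* shared 1, and the other 12 pairs shared 0. Nearly all stretches of 50 bases in each member were thus absent from the other members. Genes outside the family and stretches with mismatches were not searched.

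The IrxA cluster lies on chromosome 13 of GRCm38 from 71957921 to 73269608 and holds *Irx1* (71957921 to 71963723, minus strand), *Irx2* (72628820 to 72634198, plus strand), and *Irx4* (73260479 to 73269608, plus strand). The IrxB cluster lies on chromosome 8 from 91798525 to 92680956 and holds *Irx3* (91798525 to 91802067, minus strand), *Irx5* (92357625 to 92376286, plus strand), and *Irx6* (92674288 to 92680956, plus strand). Other annotated genes overlap 4.49% of the exonic length of *Irx3* and 4.51% of that of *Irx6*. Whether the counting used the strand is not stated in the sources used here.

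*Irx2*, a member with a known part in cerebellum formation, was at 1.55, 0.491, 0.445, and 0.965 CPM in cortex a to d. In dLG a to e it was at 66.2, 84.6, 46.0, 88.5, and 65.5 CPM. In VPM a to d it was at 64.4, 81.7, 74.0, and 57.2 CPM. Every thalamic library thus lay far above the cortex, and the libraries of the dLG and the VPM overlapped. In MGv a to d it was at 93.0, 100.3, 95.9, and 99.4 CPM, a range above all other libraries. The group means were 0.864 ± 0.517 (SD, n = 4) in the cortex, 70.2 ± 17 (SD, n = 5) in the dLG, 69.3 ± 10.8 (SD, n = 4) in the VPM, and 97.2 ± 3.33 CPM (SD, n = 4) in the MGv.

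*Irx1*, its neighbor in the IrxA cluster, has like it a part in patterning the neural tube. It was at 0.950, 0.737, 0.841, and 1.06 CPM in cortex a to d, and at 20.6, 28.6, 28.2, 28.8, and 35.1 CPM in dLG a to e. In VPM a to d it was at 25.4, 21.6, 31.1, and 16.8 CPM. All 3 nuclei overlapped, and the MGv was the most scattered. Its libraries a to d held 22.8, 58.5, 19.8, and 30.3 CPM, with MGv b alone above every dLG and VPM library. The group means were 0.897 ± 0.140 (SD, n = 4) in the cortex, 28.3 ± 5.15 (SD, n = 5) in the dLG, 23.7 ± 6.04 (SD, n = 4) in the VPM, and 32.9 ± 17.7 CPM (SD, n = 4) in the MGv.

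*Irx4*, known as a gene of the heart ventricle, was the exception. It had 0 counts in all 4 cortical libraries, which at the floor of 3 counts allows a level of up to 0.0596 CPM, without TMM factors, in the deepest of them. Its highest count was 1 among dLG, 2 among VPM, and 5 among MGv libraries, where only MGv d passed the floor, at 0.226 CPM. It was not detectable in the other libraries at this depth and did not pass edgeR's filter on low counts.

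*Irx5*, which in the heart patterns the repolarization of the ventricle, was nearly silent in the cortex, with 0.216, 0, 0.198, and 0.145 CPM in cortex a to d. In dLG a to e it was at 49.5, 64.1, 40.4, 72.7, and 52.1 CPM. In VPM a to d it was at 39.5, 55.5, 49.3, and 43.0 CPM. The dLG and the VPM overlapped, and no cortical library held more than 10 counts. In MGv a to d the level was 105.7, 136.3, 99.2, and 91.1 CPM, above every dLG and VPM library. The group means were 0.140 ± 0.0979 (SD, n = 4), 55.8 ± 12.7 (SD, n = 5), 46.8 ± 7.05 (SD, n = 4), and 108.1 ± 19.8 CPM (SD, n = 4) in the cortex, the dLG, the VPM, and the MGv.

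*Irx3*, which lies beside *Fto* and is known for a role in energy balance, was at 0.173, 0.0983, 0.297, and 1.45 CPM in cortex a to d. In dLG a to e it was at 23.8, 35.4, 38.4, 35.8, and 27.0 CPM. In VPM a to d it was at 25.0, 26.7, 23.9, and 21.9 CPM. The cortex d library stood apart from its group, and the dLG and the VPM overlapped. In MGv a to d the level was 57.8, 95.6, 62.6, and 81.0 CPM, again above every library of the other groups. The group means were 0.504 ± 0.634 (SD, n = 4), 32.1 ± 6.33 (SD, n = 5), 24.4 ± 1.99 (SD, n = 4), and 74.2 ± 17.4 CPM (SD, n = 4) in the cortex, the dLG, the VPM, and the MGv.

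*Irx6*, best known from a class of retinal bipolar cells, had few counts throughout, with at most 67 in a library. The cortex held 0, 0.0983, 0.247, and 0 CPM in libraries a to d, and the dLG 0.608, 0.621, 0, 0.398, and 0.756 CPM in libraries a to e. The VPM held 2.44, 1.00, 3.10, and 1.53 CPM, and the MGv 2.93, 3.47, 2.33, and 2.81 CPM in libraries a to d. Unlike for the other members, the dLG lay wholly below the VPM and the MGv, while its dLG c library, at 0 counts, overlapped the cortex. The group means were 0.0864 ± 0.117 (SD, n = 4) in the cortex, 0.477 ± 0.296 (SD, n = 5) in the dLG, 2.02 ± 0.934 (SD, n = 4) in the VPM, and 2.88 ± 0.470 CPM (SD, n = 4) in the MGv.

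**Figure D1:**
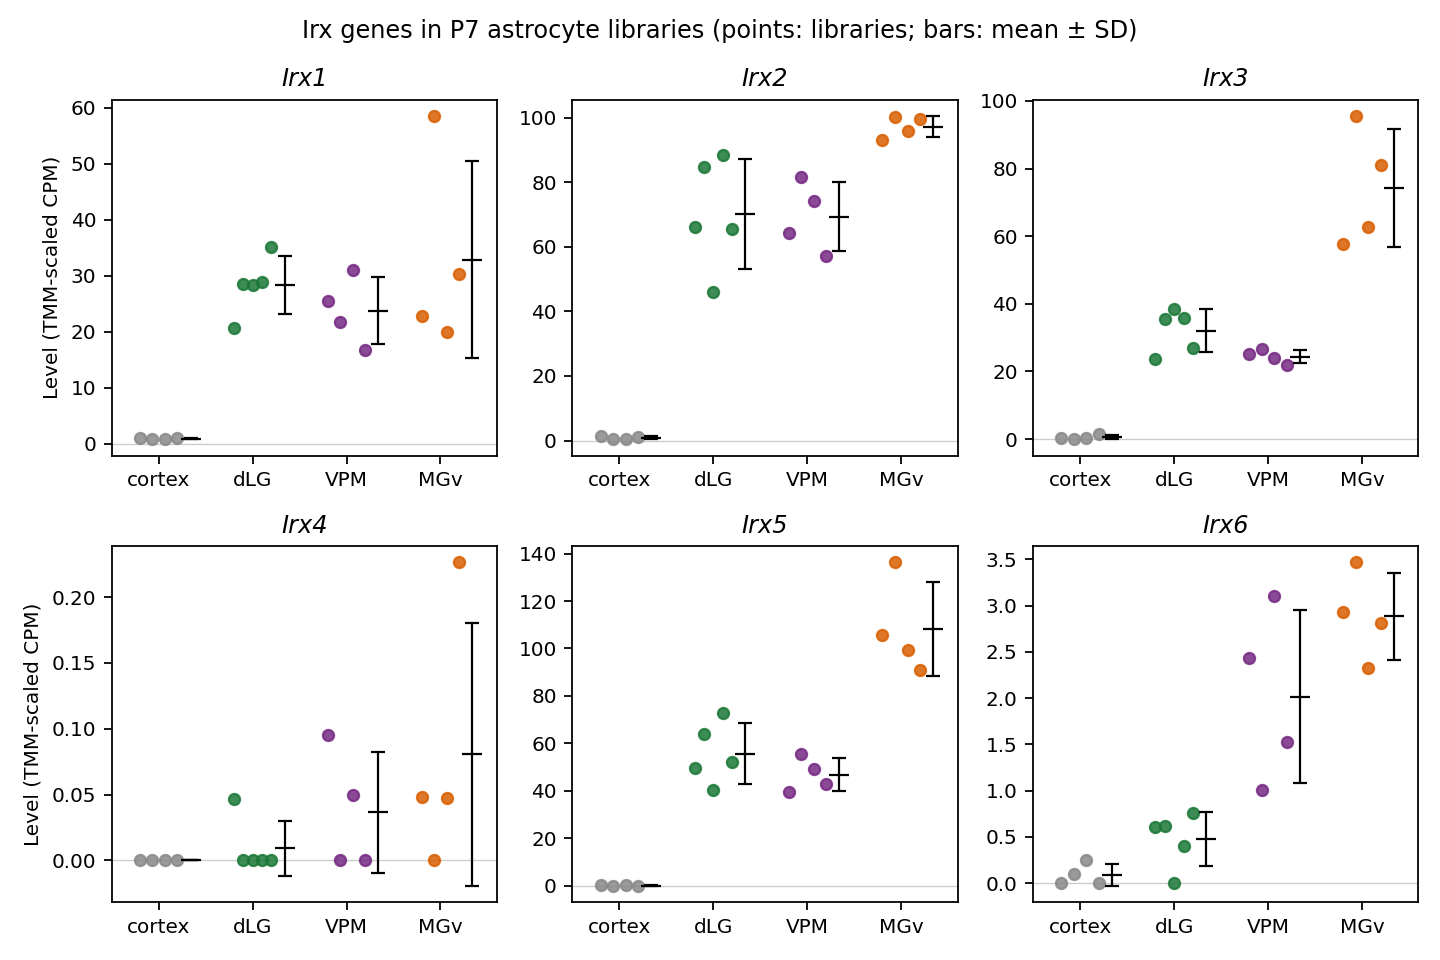
Level of each *Irx* gene in TMM-scaled CPM (vertical axes, each with its own scale) in the cortex, the dLG, the VPM, and the MGv. Points are libraries and bars are the mean ± SD. *Irx3* and *Irx5* reach 95.6 and 136.3 CPM in the MGv, where their 4 libraries sit above all others, while *Irx4* stays at or under 0.226 CPM.

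As a description of thalamus against cortex, the log2 fold change (log2FC) of the edgeR fit was 8.76 for *Irx5*, 6.49 for *Irx3*, 6.39 for *Irx2*, 4.96 for *Irx1*, and 4.34 for *Irx6*. All 13 thalamic libraries exceeded all 4 cortical ones for *Irx1*, *Irx2*, *Irx3*, and *Irx5*. For *Irx6* the groups overlapped. Over all 17856 genes tested, the thalamus lay wholly above the cortex for 1.67%, and since the members were chosen on this contrast nothing is read from their count. The values rest on few cortical counts. Without cortex d the log2FC of *Irx3* became 7.84, and without cortex c that of *Irx6* became 5.74.

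Promoters were in the RefSeq table used here for *Irx2*, *Irx3*, and *Irx4* (GRCm38.p6, windows around the start of each gene in that table). Those of *Irx2*, high in the thalamus, and *Irx4*, at or near 0 throughout, are shown because they come from the same cluster and are both rich in CpG dinucleotides, with each CpG in capitals. That of *Irx2* is chr13:72628570-72628869 and that of *Irx4* is chr13:73260247-73260546, both on the plus strand.
Irx2 promoter: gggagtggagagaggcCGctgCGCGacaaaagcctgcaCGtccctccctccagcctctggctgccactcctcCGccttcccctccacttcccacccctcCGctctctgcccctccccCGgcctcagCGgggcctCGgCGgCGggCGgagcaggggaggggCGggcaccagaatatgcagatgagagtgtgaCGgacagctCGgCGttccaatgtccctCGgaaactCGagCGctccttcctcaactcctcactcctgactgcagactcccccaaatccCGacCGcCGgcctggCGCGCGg
Irx4 promoter: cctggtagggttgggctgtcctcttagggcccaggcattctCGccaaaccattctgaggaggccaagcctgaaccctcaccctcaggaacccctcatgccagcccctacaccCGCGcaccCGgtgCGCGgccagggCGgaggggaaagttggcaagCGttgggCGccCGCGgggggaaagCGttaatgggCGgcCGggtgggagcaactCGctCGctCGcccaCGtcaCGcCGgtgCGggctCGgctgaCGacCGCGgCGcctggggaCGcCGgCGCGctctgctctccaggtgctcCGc

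The *Irx2* promoter held 25 CpG at a base content of 69% guanine and cytosine, and the *Irx4* promoter held 31 CpG at 70.7%. The *Irx3* window, chr8:91801605-91801904, held 14 CpG. It lies inside the gene as placed above, downstream of its start at 91802067. The median of all 32851 promoters of that length was 7 CpG. So the member at or near 0 counts had more CpG at its start than the abundant one.

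Both strands of these 3 windows were searched for 7 motifs. ACANNTGT is bound by Iroquois proteins, and 7.38% of all promoters held it. TAATTA is a core of many homeodomain proteins, and 5.29% of all promoters held it. For Otx proteins TAATCC was searched, which 7.06% of all promoters held. Of the signaling pathways of the thalamus, Wnt was represented by the TCF/LEF motif CTTTGAT, held by 3.73%, and hedgehog by the Gli motif GACCACC, held by 2.80%. The E-box CACGTG was held by 7.15% and the TATA box TATAAA by 13.6% of all promoters. No match to any of the 7 was in the windows of *Irx2*, *Irx3*, or *Irx4*, which says only that these letters are not there.

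*Irx3* and *Irx5* were higher in the MGv than in the dLG. *Irx3* was 2.32-fold higher there (log2FC of dLG over MGv -1.22, SE 0.18, adjusted p = 0.00338) in the quasi-likelihood test of edgeR, with Benjamini-Hochberg (BH) adjustment over all 17319 genes tested. *Irx5* was 1.95-fold higher (log2FC -0.96, SE 0.18, adjusted p = 0.0236, same edgeR test). Few genes differed between these nuclei. Only 0.277% of all genes tested were called higher in the MGv and 0.37% higher in the dLG, at an adjusted p under 0.1, and the median log2FC of all genes was -0.0038. *Irx2* had a log2FC of -0.47 (SE 0.17, adjusted p = 0.529), *Irx1* one of -0.22 (SE 0.28, adjusted p = 1), and *Irx6* one of -2.58 (SE 0.69, adjusted p = 0.184) in the edgeR test, and these did not pass the threshold. Without dLG c, *Irx6* passed it (log2FC -2.26, adjusted p = 0.0316, edgeR).

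Taken library by library, the MGv lay wholly above the dLG for *Irx2*, *Irx3*, *Irx5*, and *Irx6*. Over all genes tested, 1.24% had all MGv libraries above the dLG. A 2-sided exact permutation test on log2(CPM + 0.5) gave p = 0.0159 for each of these 4 genes, not adjusted, which is the smallest this test can give with 5 against 4 libraries. The calls of *Irx3* and *Irx5* were kept without each of the 13 libraries in turn. The *Irx3* call was lost in a fit that also held the cortex (adjusted p = 0.122, edgeR) and that of *Irx5* when the number series entered as a covariate (adjusted p = 0.118, edgeR). Within the number series that holds all 4 MGv libraries and dLG a and b, the mean difference of dLG and MGv on the log2(CPM + 0.5) scale was -1.31 for *Irx3* and -0.92 for *Irx5*, against -1.19 and -0.96 over all libraries.

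Between the VPM and the MGv, the same members were again higher in the MGv. *Irx3* was 3.12-fold higher (log2FC of VPM over MGv -1.64, SE 0.19, adjusted p = 0.0004, same edgeR test). *Irx5* was 2.37-fold higher (log2FC -1.24, SE 0.19, adjusted p = 0.00253, edgeR). *Irx2* was 1.44-fold higher (log2FC -0.52, SE 0.18) and just passed the threshold, at an adjusted p of 0.0988 in edgeR. This last call was lost without any one of 9 of the 13 libraries, namely dLG a and b, MGv a to d, and VPM a, c, and d, with adjusted p from 0.118 to 0.266 in edgeR. It was also lost in the fit with the cortex (adjusted p = 0.202, edgeR), with no filter on low counts (adjusted p = 0.157, edgeR), and at a threshold of 0.05. *Irx1* (log2FC -0.51, SE 0.30, adjusted p = 0.34) and *Irx6* (log2FC -0.55, SE 0.69, adjusted p = 0.691) did not pass it in edgeR. Without MGv b the log2FC of *Irx1* was -0.05.

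Here many genes differed, since 6.89% of all genes tested were called higher in the MGv and 4.53% higher in the VPM. The MGv lay wholly above the VPM for *Irx2*, *Irx3*, and *Irx5*, as it did for 9.29% of all genes tested. The 2-sided exact permutation test gave p = 0.0286 for each of the 3, the smallest that 4 against 4 libraries allow. *Irx3* and *Irx5* kept their calls without each of the 13 libraries. Within the largest number series, with VPM c and d, the mean difference of VPM and MGv on the log2(CPM + 0.5) scale was -1.65 for *Irx3*, -1.21 for *Irx5*, and -0.57 for *Irx2*, against -1.56, -1.19, and -0.50 over all libraries.

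When the dLG was compared with the VPM, only *Irx6* was called, at 4.08-fold higher in the VPM (log2FC of dLG over VPM -2.03, SE 0.68, adjusted p = 0.0978, same edgeR test). The VPM was called higher for 3.16% and the dLG for 6.48% of all genes tested. The call lies at the threshold and was lost without any one of 10 of the 13 libraries, namely dLG a, b, d, and e, MGv a, c, and d, and VPM a, c, and d, with adjusted p from 0.104 to 0.253 in edgeR. The VPM libraries lay wholly above the dLG for *Irx6*, as for 5.7% of all genes tested, and the 2-sided exact permutation test gave p = 0.0159. The mean difference was -1.28 within the number series of dLG a and b and VPM c and d, and -0.98 within that of dLG d and e and VPM a and b, on the log2(CPM + 0.5) scale, against -1.36 over all libraries. *Irx3* (log2FC 0.43, SE 0.18, adjusted p = 0.178), *Irx5* (0.28, SE 0.18, adjusted p = 0.375), *Irx1* (0.29, SE 0.29, adjusted p = 0.594), and *Irx2* (0.05, SE 0.17, adjusted p = 0.903) did not pass the threshold in edgeR.

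Over the 3 pairs of nuclei, 17 exact permutation tests were made, and 8 had an unadjusted p under 0.05. These 8 were the comparisons in which the libraries of the nuclei did not overlap. In the same directions, the MGv lay wholly above the dLG for 1.24% of all genes tested and above the VPM for 9.29%. The VPM lay wholly above the dLG for 5.7%. The share of all genes with an exact p under 0.05 is not given here. *Irx4* between the dLG and the VPM had no library above the floor and was not tested. For *Irx4* the exact permutation p was 0.0952 between the dLG and the MGv and 0.629 between the VPM and the MGv.

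**Figure D2:**
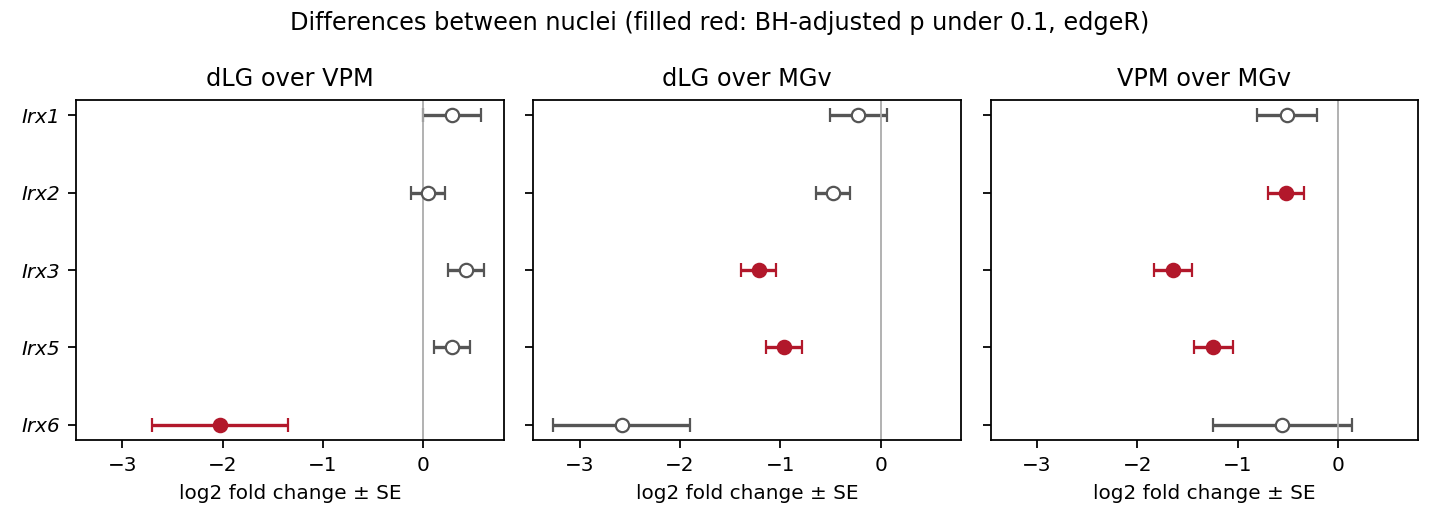
Log2 fold change ± SE (horizontal axis) of 5 *Irx* genes in the 3 pairs of nuclei, from the edgeR fit of the 13 thalamic libraries. Filled red points have a BH-adjusted p under 0.1. *Irx3* and *Irx5* lie between -1.64 and -0.96 in both comparisons with the MGv, and *Irx6* at -2.03 for the dLG over the VPM.

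Some markers of cell types were also called between nuclei, in pairs with the VPM. Between the dLG and the MGv, no gene of the marker lists below was called. There, 0.37% of all genes tested were called higher in the dLG and 0.277% higher in the MGv. The 12 markers of pretectum and midbrain, which border the thalamus, had counts for 10 genes and none in the files used here for *Pax7* and *Lmx1b*. They summed to 15.5 to 34.5 CPM in the MGv, 11.5 to 22.6 CPM in the dLG, 10.6 to 15.9 CPM in the VPM, and 1.04 to 1.93 CPM in the cortex. Of the 4 that could be tested between nuclei, *Pax3* was called higher in the MGv than in the VPM and *Gata3* higher in the dLG than in the VPM. Over the 13 thalamic libraries, the sum of this list had a Pearson r of 0.73 with *Irx3* and 0.55 with *Irx5*. It was 0.43 with *Irx1*, 0.26 with *Irx2*, and 0.12 with *Irx6*. With each nucleus centred on its mean, r was 0.25 with *Irx3* and -0.29 with *Irx5*. For *Irx1*, *Irx2*, and *Irx6* the centred r was 0.29, -0.41, and -0.13. The part of such tissue in these levels was not tested.

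*Gfap*, whose promoter drives the reporter, was called higher in the MGv than in the VPM (log2FC of VPM over MGv -7.28, adjusted p = 0.00793, edgeR). Of the 10 astrocyte markers, *Gfap* and *Sox9* were called higher in the MGv than in the VPM, and *S100b* and *Gja1* higher in the VPM. Between the dLG and the VPM, where *Irx6* was called, *Gfap* (log2FC of dLG over VPM 5.46, adjusted p = 0.0276, edgeR), *Sox9*, and *Aldh1l1* were called higher in the dLG and *S100b* higher in the VPM. MGv a was at 36.1 CPM of *Gfap*, below all dLG libraries. Of the 11 neuronal markers, *Gad2* was called higher in the dLG than in the VPM (6.83 against 0.357 CPM, adjusted p = 0.0224, edgeR). *Nefm* was called higher in the VPM than in the MGv (105 against 35.0 CPM, adjusted p = 0.0282, edgeR), with libraries that overlapped. Microglial markers summed to 11.8 to 54.5 CPM in the MGv, 10.9 to 91.8 CPM in the dLG, and 6.68 to 11.2 CPM in the VPM, where *Cx3cr1*, *Csf1r*, and *Tmem119*, 3 of the 6, were called lower than in the MGv and than in the dLG. Of the 9 oligodendrocyte lineage markers, 4 were called higher in the VPM than in the MGv and 2 higher in the MGv. *Cspg4* alone of them was called between the dLG and the VPM, higher in the dLG (adjusted p = 0.0883, edgeR). For all these lists, 6.89% of all genes tested were called higher in the MGv than in the VPM and 4.53% higher in the VPM. Between the dLG and the VPM, 6.48% were called higher in the dLG and 3.16% higher in the VPM. Endothelial and mural markers summed to 2.36 to 15.0 CPM in the MGv, 2.48 to 63.8 CPM in the dLG, and 3.62 to 14.5 CPM in the VPM. The 5 ependymal markers summed to 6.84 to 12.8 CPM in the MGv, wholly above the VPM at 3.06 to 6.45 CPM, and to 2.17 to 8.32 CPM in the dLG and 6.80 to 77.1 CPM in the cortex. Over the 13 thalamic libraries, with each nucleus centred on its mean, their sum had a Pearson r of 0.60 with *Irx2*, 0.65 with *Irx5*, 0.69 with *Irx6*, 0.28 with *Irx1*, and -0.19 with *Irx3*. In the dLG and in the VPM, 3 of the 5 ependymal markers were at or under the floor. The dLG c library, with the lowest sum (2.17 CPM), was also the lowest dLG library in *Irx2*, *Irx5*, and *Irx6*. No r without it was computed. The centred r of the other marker lists with these 5 members ran from -0.68, for microglia and *Irx3*, to 0.51, for the oligodendrocyte lineage and *Irx1*. These correlations are a description over libraries that share preparation and scaling. The part of these cells in the levels of the *Irx* genes was not tested beyond these values.

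Levels of different members were compared as CPM per kb of exonic length, which corrects for the length of a gene. In the dLG the order was *Irx2* (21.4), *Irx5* (17.8), *Irx3* (11.6), *Irx1* (10.8), *Irx6* (0.141), and *Irx4* (0.00359 CPM per kb). The ranges of neighboring members overlapped except between *Irx1* and *Irx6*. In the VPM the order was *Irx2* (21.1), *Irx5* (15.0), *Irx1* (9.06), *Irx3* (8.82), *Irx6* (0.598), and *Irx4* (0.0140 CPM per kb). Here the ranges of *Irx2* and *Irx5* and those of *Irx1* and *Irx3* overlapped, and the other neighbors were apart. In the MGv the order was *Irx5* (34.6), *Irx2* (29.6), *Irx3* (26.9), *Irx1* (12.5), *Irx6* (0.856), and *Irx4* (0.0309 CPM per kb). The first 4 of these overlapped with their neighbors, and *Irx5* was above *Irx2* in 3 of the 4 libraries. In the cortex all neighbors overlapped, from *Irx1* at 0.343 down to *Irx4* at 0 CPM per kb.

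The makeup of the family is given as shares of the summed CPM per kb. The 6 genes summed to 61.8 ± 10.2 (SD, n = 5) in the dLG, 54.6 ± 7.02 (SD, n = 4) in the VPM, and 104.5 ± 18.9 CPM per kb (SD, n = 4) in the MGv. *Irx3* made up 25.6% ± 2.69 (SD, n = 4) of the sum in the MGv, 19.1% ± 4.49 (SD, n = 5) in the dLG, and 16.3% ± 1.41 (SD, n = 4) in the VPM. *Irx2* made up 28.9% ± 3.90 in the MGv (SD, n = 4), 34.3% ± 4.41 (SD, n = 5) in the dLG, and 38.6% ± 1.54 (SD, n = 4) in the VPM. The balance thus leaned to the IrxB genes in the MGv. The ratio of summed CPM per kb of *Irx3*, *Irx5*, and *Irx6* to that of *Irx1*, *Irx2*, and *Irx4* was 1.5 in MGv a, b, and c and 1.41 in MGv d. It was 0.878, 0.914, 1.08, 0.957, and 0.799 in dLG a to e and 0.764, 0.835, 0.735, and 0.928 in VPM a to d. The MGv lay wholly above the other nuclei, which overlapped, and its mean was 1.48 ± 0.0423 (SD, n = 4), against 0.926 ± 0.105 (SD, n = 5) in the dLG and 0.815 ± 0.0858 (SD, n = 4) in the VPM. The ratio is formed within a library and needs no scaling between libraries. It was computed after the levels were known and was not tested.

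**Figure D3:**
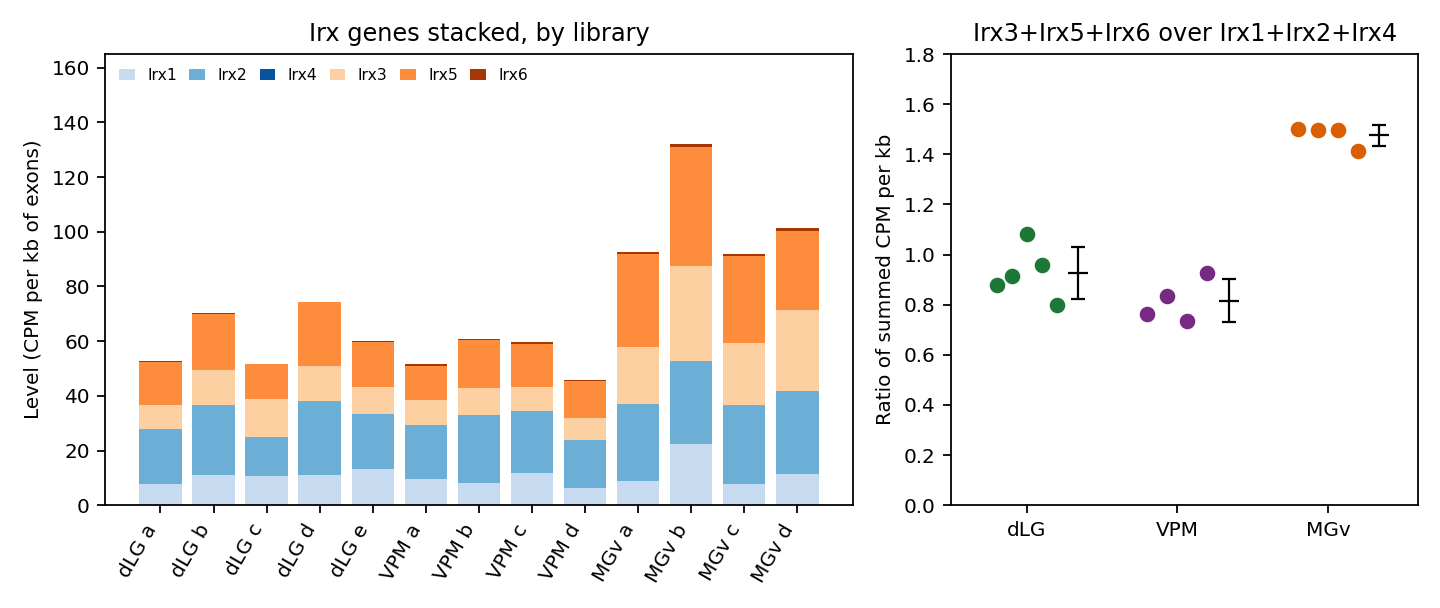
Left, level of the 6 *Irx* genes stacked for each thalamic library in CPM per kb of exons (vertical axis), with IrxA genes in blue and IrxB genes in orange. Right, ratio of the summed IrxB to the summed IrxA genes by nucleus, points for libraries and bars for mean ± SD. The 4 MGv libraries lie at 1.41 to 1.5, above all dLG and VPM libraries.

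Across the 13 thalamic libraries, *Irx2* and *Irx5*, which lie on different chromosomes, varied together. Their Pearson r on log2(CPM + 0.5) was 0.88 and Spearman's rho 0.94. With each nucleus centred on its own mean, r was 0.83, and without the 2 libraries farthest in *Irx2*, dLG c and dLG d, it was 0.67. *Irx3* and *Irx5*, which are neighbors in the IrxB cluster, had an r of 0.89 and a rho of 0.76, but an r of 0.31 once the nuclei were centred, so their likeness lay mostly in the difference between nuclei. *Irx1* and *Irx3* had a centred r of 0.65, and 0.44 without MGv b and MGv c. *Irx1* and *Irx2*, neighbors in the IrxA cluster, had an r of 0.29 and a centred r of 0.18. The libraries share preparation and scaling, so these 10 correlations among 5 members are a description.

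Noncoding RNA genes lie at several members. *Gm20554* starts 256 bases from *Irx2* on the opposite strand, and *Crnde* starts 1505 bases from *Irx5* on the opposite strand. *Irx3os* overlaps *Irx3* on the opposite strand. *Crnde*, a long noncoding RNA, was at 0.548 ± 0.286 (SD, n = 4) in the cortex, 8.91 ± 1.40 (SD, n = 5) in the dLG, 8.99 ± 0.887 (SD, n = 4) in the VPM, and 19.7 ± 3.65 CPM (SD, n = 4) in the MGv. Like *Irx5*, it was called higher in the MGv than in the dLG (log2FC of dLG over MGv -1.15, SE 0.20, adjusted p = 0.0137) and than in the VPM (log2FC of VPM over MGv -1.17, SE 0.21, adjusted p = 0.00694) in the edgeR test. Its r with *Irx5* over the 13 libraries was 0.92, the highest of 14555 genes, and 0.65 with the nuclei centred.

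*Gm20554* was at 0.0599 ± 0.0933 (SD, n = 4) in the cortex, 4.50 ± 2.02 (SD, n = 5) in the dLG, 5.40 ± 0.629 (SD, n = 4) in the VPM, and 7.02 ± 1.42 CPM (SD, n = 4) in the MGv. No pair of nuclei was called for it, with edgeR adjusted p from 0.540 to 0.994, and its r with *Irx2* was 0.72. *Irx3os* had 0 counts in the cortex and at most 14, 10, and 40 in a dLG, VPM, and MGv library, all far under the counts of *Irx3*. Its log2FC of VPM over MGv was -2.16 (SE 0.95, adjusted p = 0.187, edgeR). Reads of *Irx3* and *Irx3os* in the overlap cannot be told apart without strand. An antisense gene at *Irx6* was not analysed here.

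Genes around the clusters were looked at in the same way. Within 1 Mb of an *Irx* gene lie 59 other genes with counts, of which 42 were tested between thalamus and cortex and 40 between nuclei. Between thalamus and cortex 4 were called higher in the thalamus, of which 3 were *Gm20554*, *Crnde*, and *Irx3os* and the other was *Gm36325*. Higher in the cortex were 6, which were *Gm19935*, *Slc12a7*, *Ces5a*, *Slc6a19*, *Rbl2*, and *Fto*. Of all genes tested, 5.45% were called higher in the thalamus and 5.93% higher in the cortex, and the median log2FC was 0.03 for the neighbors and 0.02 for all genes. The 3 of lowest p were *Gm20554* and *Crnde*, both higher in the thalamus, and *Gm19935* (log2FC -2.05, SE 0.32, adjusted p = 0.000223, edgeR), higher in the cortex. Between the VPM and the MGv, 1 was called higher in the MGv, which was *Crnde*, and 2 higher in the VPM, which were *Trip13* and *Gm10263*. Of all genes tested, 6.89% and 4.53% were called in these directions. In dLG against MGv only *Crnde* was called, higher in the MGv, as were 0.277% of all genes, with 0.37% higher in the dLG. Between the dLG and the VPM only *Mrpl36* was called, higher in the VPM, as were 3.16% of all genes, with 6.48% higher in the dLG. *Fto*, the large neighbor of *Irx3*, had a log2FC of -0.40 (SE 0.14, adjusted p = 0.0885, edgeR) for thalamus over cortex, opposite in sign to that of *Irx3*.

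**Figure D4:**
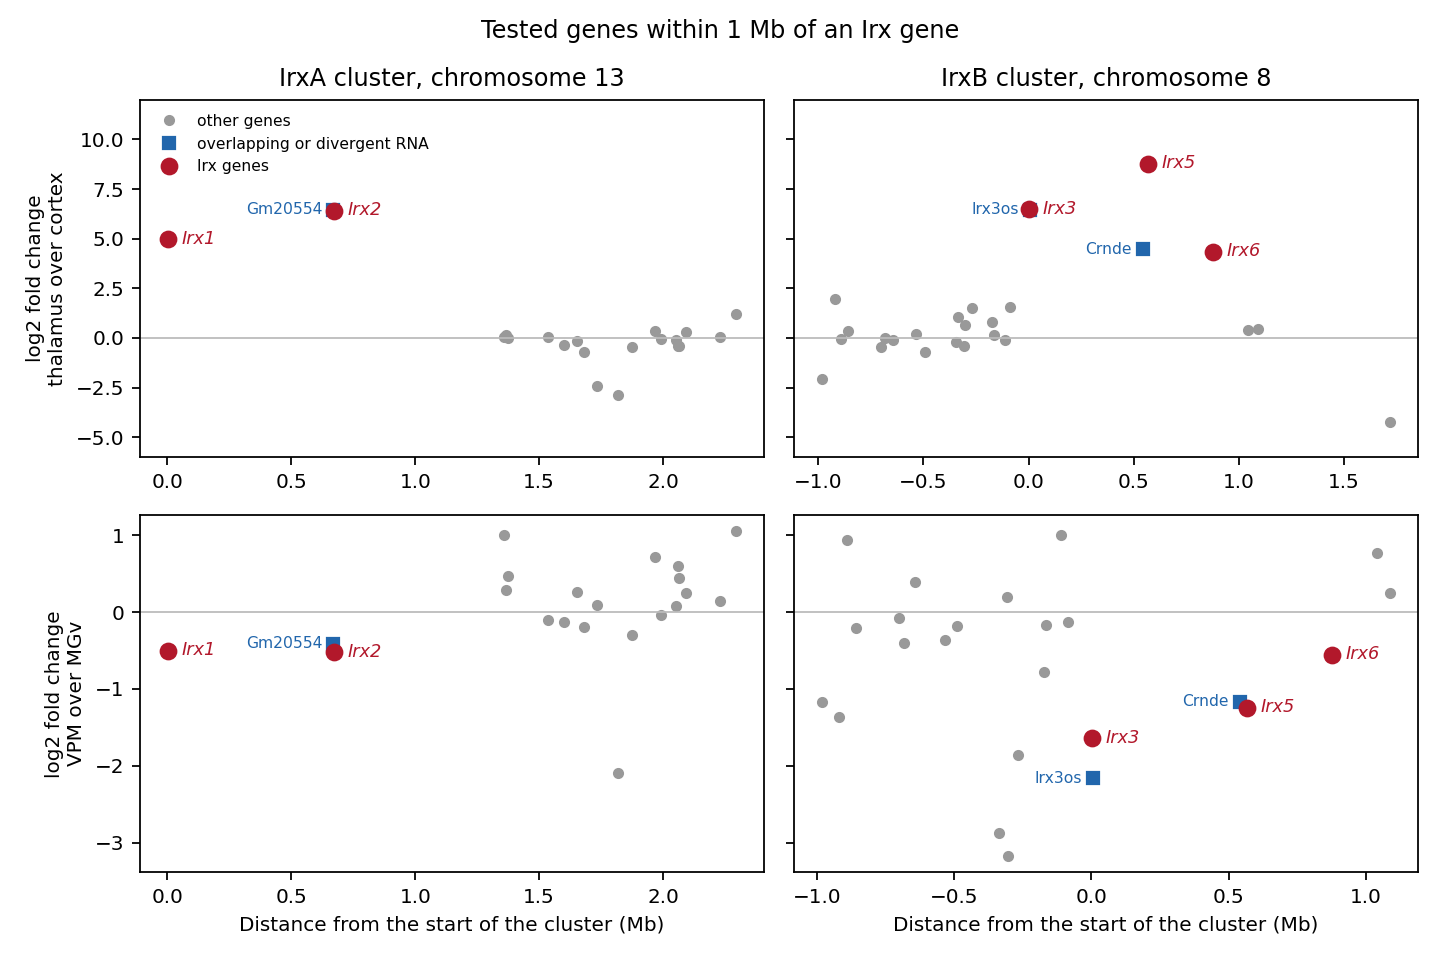
Log2 fold change of thalamus over cortex (upper panels) and of VPM over MGv (lower panels) for the tested genes within 1 Mb of an *Irx* gene, by distance in Mb from the start of the IrxA (left) and IrxB (right) cluster. Red points are *Irx* genes, with *Irx4* untested, and blue squares are noncoding RNAs that overlap them or start beside them. Above, *Irx* genes lie at 4.34 to 8.76, and the gray genes lie lower, down to -4.25 for *Ces5a*.

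Among the 12 other TALE homeobox genes measured, which encode partners and relatives such as Meis proteins, the direction between regions was mixed. *Meis1* was higher in the thalamus (49.0 against 32.2 CPM, log2FC 0.61, SE 0.18, adjusted p = 0.0421, edgeR), and *Meis2* was higher in the cortex (75.1 against 15.2 CPM, log2FC -2.31, SE 0.23, adjusted p = 1.0e-06, edgeR). The 10 others did not pass the threshold, and the median log2FC was 0.04, against 0.02 for all genes. By the same test, 5.45% of all genes were called higher in the thalamus and 5.93% higher in the cortex. Between nuclei, 4 of 12 were called lower in the VPM than in the dLG and 4 of 12 lower than in the MGv, *Tgif1*, *Meis1*, and *Meis2* in both comparisons. Of all genes tested, 6.48% were lower in the VPM than in the dLG and 6.89% lower than in the MGv by the same test, and 8 of the 12 passed in neither. *Meis2* was at 17.7 CPM in the dLG, 9.81 CPM in the VPM, and 17.3 CPM in the MGv. The median log2FC of the 12 for dLG over MGv was -0.08.

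Of 21 genes known for patterning the forebrain and diencephalon, 17 were tested between regions, of which 6 were called higher in the thalamus and 4 higher in the cortex. Over all genes tested, the shares called were 5.45% and 5.93% in these directions. *Otx2*, a gene of the thalamus and midbrain, averaged 64.9 CPM in thalamic libraries and had at most 1 count in a cortical library. *Fezf2*, a gene of cortical projection neurons, was at 19.1 CPM in the cortex and had at most 2 counts in a thalamic library. *Lhx2*, a gene of cortical progenitors, averaged 231 CPM in cortical against 7.74 CPM in thalamic libraries (log2FC -4.90, SE 0.37, adjusted p = 2.5e-08, edgeR).

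Between nuclei, 16 of these genes were tested. In the MGv 9 were called higher than in the VPM and 1, *Six3*, lower (log2FC of VPM over MGv 2.94, adjusted p = 0.000851, edgeR), where 6.89% and 4.53% of all genes were called in these directions. In the dLG 8 were called higher than in the VPM, against 6.48% of all genes. Between the dLG and the MGv 1 was called in each direction, against 0.37% of all genes higher in the dLG and 0.277% higher in the MGv. *Six3*, a gene of the anterior forebrain, ran opposite to *Irx3* and *Irx5* in the MGv, at 28.8 CPM in the dLG, 11 CPM in the VPM, and 1.39 CPM in the MGv (log2FC of dLG over MGv 4.36, SE 0.40, adjusted p = 8.2e-05, edgeR). *Lhx9*, a gene of the early thalamus, was at 24.2 CPM in the dLG, 1.93 CPM in the VPM, and 10.2 CPM in the MGv. *Gli1*, a target of Sonic hedgehog signaling, was at 6.71, 0.860, and 10.9 CPM, and *Olig3*, a gene of thalamic progenitors, at 4.66, 0.212, and 2.11 CPM in the dLG, the VPM, and the MGv. These 3 were called lower in the VPM than in either other nucleus, with edgeR adjusted p from 0.00159 to 0.0273.

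The genes most like each member over the 13 thalamic libraries were ranked among 14555 genes by Pearson r on log2(CPM + 0.5), as a description. For *Irx3* they were *Rhoj* (r = 0.95), a small GTPase, *Nrgn* (0.95), a neuronal calmodulin-binding protein, and *Chst1* (0.93), a sulfotransferase. For *Irx5* they were *Crnde* (0.92), *Cdk6* (0.91), a kinase of the cell cycle, and *Acaa2* (0.91), a mitochondrial thiolase. The means of all 6 were highest in the MGv among the nuclei, as that of *Rhoj* was at 27.2 CPM against 16.5 in the dLG and 14.0 CPM in the VPM. For *Irx2* they were *Slc25a36* (0.91), *Plagl1* (0.90), and *Zfp212* (0.90), for *Irx1* *Rps4l* (0.91), *Chd1* (0.86), and *Ctdnep1* (0.85), and for *Irx6* *Emid1* (0.88), *Ripor2* (0.88), and *Pgpep1* (0.87). The cortex was not part of this ranking. *Nrgn* was at 154 CPM and *Emid1* at 500.4 CPM in the cortex, where *Irx3* and *Irx6* were lowest.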

How the data were processed

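Astrocyte RNA of 17 libraries was sequenced as single-end reads of 50 bases. The authors trimmed adapters, mapped reads to GRCm38 with STAR 2.7.0d, counted them on Ensembl genes with featureCounts (Subread 1.6.4), and deposited raw counts per gene without normalization. Whether multimapped reads or strand were used is not given in the sources used here. Libraries were grouped by their labels. Whether replicates of a letter share brains is not stated, so p-values measure the spread between pools.

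Counts were scaled with TMM factors in edgeR 4.0.16 (R 4.3.3), filtered with filterByExpr, and tested with robust quasi-likelihood tests and BH adjustment over all genes, called at an adjusted p under 0.1 as in the study's methods. Pairs of nuclei were contrasts in 1 fit of the 13 thalamic libraries, and the regions were compared over all 17. An SE is |log2FC| over the square root of *F*. Exact permutation tests used log2(CPM + 0.5). Symbols and positions came from Ensembl release 96, with 26548 of 26556 identifiers matched. The edgeR fit was tested on simulated data.

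The members and gene lists were chosen with earlier results of these data known. Named were the 6 members, noncoding genes overlapping them or starting divergently within 5 kb, per list up to 4 called genes of lowest p between regions and between nuclei, the 3 called neighbors of lowest p within 1 Mb, the 3 genes most like each member (mean of at least 1 CPM), and markers as counts and sums. Other genes named beside these counts were picked after their values were seen. Some genes that this rule named are not reported here. Alternatives were DESeq2 1.42.0 or its size factors, no filter or 10 counts required in each library, a threshold of 0.05, a replicate block by letter, a covariate for the number series of the labels, a fit with the cortex, pseudocounts of 0.1 and 1, and leaving out each library. Tests of single genes and plots were made in Python 3.11.15 (scipy 1.17.1, matplotlib 3.10.9).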

Additional observations from a re-analysis of the deposited data

Results flagged for a closer look

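*Irx3* in cortex d lay at 1.45 CPM, apart from the other cortical libraries, which reached at most 0.297 CPM and fell to 0.0983 CPM. The gap was 0.853 of the range of the 4 libraries, above Dixon's critical value. It was the only one of 21 combinations of gene and group looked at, and chance flags about 1 in 20. The level rests on 30 counts. The other members with counts in cortex d did not stand apart in this way.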

How the results depend on the processing

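The calls of *Irx3* and *Irx5* between the VPM and the MGv kept their direction and their side of the threshold under every alternative run, with log2FC from -1.75 to -1.48 and from -1.32 to -1.09. In dLG against MGv, 1 *Irx* gene in place of 2 was called in the fit with the cortex and with the number series as a covariate. In dLG against VPM, 0 *Irx* genes in place of 1 were called with a threshold of 0.05, the fit with the cortex, no filter, and the replicate block. In this last fit *Irx6* had a log2FC of -2.40 (adjusted p = 0.157, edgeR). With 10 counts required in each library 0 were called too, but there *Irx6*, at 0 counts in dLG c, was not tested. With each library left out, 0 to 1 were called there. DESeq2 also called *Irx6* between the dLG and the MGv (adjusted p = 0.000502). *Irx2* between the dLG and the VPM, not called, changed sign, with a log2 difference of 0.041 under DESeq2's size factors in place of -0.0068, and a log2FC of -0.048 to 0.17 with 1 library left out. *Irx1* between the dLG and the MGv ran from -0.39 to 0.22, positive only without MGv b.

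Over all genes, 1670 were called between the dLG and the VPM, against 705 at an adjusted p under 0.05, 3051 with DESeq2, 814 with the number series as a covariate, 1079 with the replicate block, and 357 to 3147 with a library left out. Between the dLG and the MGv 112 were called, against 345 with DESeq2, 183 in the fit with the cortex, 64 with the number series, and 66 to 127 with a library left out. Between the VPM and the MGv 1979 were called, against 958 at an adjusted p under 0.05, 3205 with DESeq2, and 712 to 2998 with a library left out. Between thalamus and cortex 2033 were called, and 1155 to 2331 with a library left out. The cause of these shifts was not tested. Same-letter libraries of different nuclei deviated together in 2 of 12 pairs at a correlation above 0.1 (-0.098 to 0.219), so the letters were not taken to pair samples. Depth limits *Irx4* and the cortical levels.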
